A study of Mus musculus with 23 samples.

Results

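The 9 basement membrane genes described here were the laminin chains Lama1, Lama5, Lamb1 and Lamc1, the type IV collagen chains Col4a1 and Col4a2, perlecan (Hspg2), nidogen 1 (Nid1) and the collagen-binding glycoprotein Sparc. They were chosen by name, with earlier results of these data known, among 55413 annotated genes, 13608 of which held a crosslink site in at least 1 list. Every CTCF crosslink site inside a gene body of GENCODE M21 (mm10) and on the strand of that gene was assigned to it. All 9 held sites, which is no result given that choice, and they took 856 of 429119 genic sites in the longest list.

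The study mapped RNA contacts of CTCF, a zinc finger protein that organises chromatin loops, by iCLIP2, in which UV light crosslinks protein to RNA and the truncated cDNA marks the linked nucleotide. E14 mouse embryonic stem cells (ESCs) carried mAID-eGFP on both endogenous Ctcf alleles, OsTIR1(F74G) at Rosa26 and a doxycycline-inducible Flag-Halo rescue CTCF at Tigre, either wild type (WT) or a zinc finger 1 mutant (ΔZF1), each rescue line being 1 clone. All groups, controls included, received 1 µM 5-Ph-IAA, which removed the endogenous protein, and 1 µg/mL doxycycline for 24 hours before nuclear RNA was recovered with an anti-Flag antibody. ESCs were kept on 0.1% gelatin with LIF, CHIR99021 and PD0325901, whereas neural progenitor cells (NPCs) were obtained after 2 days in N2B27 on plates coated with 10 µg/mL laminin. The groups were ESC WT, ESC ΔZF1 and NPC ΔZF1 with 4 libraries each and NPC WT with 3, all given 400 mJ/cm2 of UV at 254 nm, and the non-crosslinked (noXL) controls of ESCs and NPCs with 4 each. Both noXL groups came from the WT rescue line.

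The libraries of a group were merged before sites were called, so that each group is a single list without replicate error and conditions could not be tested against each other. Ranges in parentheses are 95% Wilson intervals, from which those of ratios were also derived, and account for counting error alone. The lists held 102002 (NPC noXL) to 429119 (ESC WT) genic sites, and read depth is unknown. Ratios between lists were therefore scaled to genic sites, as log2 values with a pseudocount of 1, and a gene was compared when it held at least 20 sites in both lists together. A log2 ratio of at least 1 or at most -1 is called past the limit, which is a size and not a test. A count of sites rises with the amount of a transcript as well as with its crosslinking, and RNA abundance was not analysed here. In these bulk lists fewer cells of a type and less RNA per cell cannot be told apart.

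Basement membranes are sheets of extracellular matrix on which epithelia, including those of the early embryo and the neural tube, rest. Laminin, a trimer of an α, a β and a γ chain, polymerises at the cell surface; type IV collagen forms a second network; and nidogen and perlecan join both. Lama1 encodes the α1 chain of laminin-111, the first laminin of the embryo, and Lama5 the α5 chain of laminin-511, whereas Lamb1 and Lamc1 encode the β1 and γ1 chains shared by both trimers. Col4a1 and Col4a2 are transcribed in opposite directions from a common promoter region.

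The cell labels were checked against marker genes. The 6 naive pluripotency genes examined summed to 1248 sites for ESC WT but 30 for NPC WT. Of 5 neural progenitor markers, Nes held 2 sites with WT in ESCs and 28 in NPCs, whereas Sox1, Pax6, Hes5 and Zic1 were at 0 in both. The NPC label was thus borne out by the loss of naive markers and by Nes alone. Primitive and visceral endoderm, which secretes basement membrane, was represented by 12 markers that summed to 0 sites in NPC WT and each ESC list, while NPC ΔZF1 had 2 such sites and NPC noXL 1. Of 7 markers of parietal endoderm and mesenchyme, only Fn1 and Vim held more than 2 sites in any list, with 262 and 48 sites in the ESC WT list and 102 and 20 in that of NPC WT.

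To show what a site looks like, the 21-nt RNA around the highest-scoring site of each gene is given 5′ to 3′ from the mm10 reference, with the crosslinked nucleotide in capitals. For each gene it comes from the WT list in which the gene held more sites per 100000 genic sites, which was the ESC list for Lama1 and Nid1 and the NPC list for the others.
Lama1, chr17:67697251-67697271, plus strand, 5′ UTR: gcugggaagaGcacacucgcg
Lama5, chr2:180225821-180225841, minus strand, 5′ UTR: gugcgcgcugUcccuagagcc
Lamb1, chr12:31278619-31278639, plus strand, coding exon 6: auucugacauUgagcccucga
Lamc1, chr1:153219425-153219445, minus strand, 3′ UTR: cuuaacauuuUggucacaguu
Col4a1, chr8:11312635-11312655, minus strand, 5′ UTR: ugggcugcauUuccccgccgu
Col4a2, chr8:11421252-11421272, plus strand, coding exon 22: gggagcucggAaagaaaggcg
Hspg2, chr4:137468770-137468790, plus strand, 5′ UTR: ugggaaagagGcgagcagucc
Nid1, chr13:13483665-13483685, plus strand, coding exon 9: cccuucagaaUccaugcuaca
Sparc, chr11:55419841-55419861, minus strand, exon 1, 5′ UTR of the transcript used for numbering and coding in another: cugcagcccuUcagaccgcca

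Several of these sites lay at the very start of a gene. In ESC WT the highest-scoring site of 4 of the 9 genes was within 100 nt of the annotated gene start, and all 4 were on G: nucleotide 3 of Lama1, 12 of Hspg2, 18 of Lamc1 and 51 of Col4a2, which held 3 sites in that list. In NPC WT it was so for 3 genes, Lama1 at nucleotide 24, Lama5 at 29 and Hspg2 at 12, with 2 of the 3 on G, the Lama1 site being the only one of that gene there. The Hspg2 site scored highest of that gene with WT in ESCs (62.3) and NPCs (111) and with ΔZF1 in ESCs (38.0), above 99.0%, 99.5% and 98.5% of the sites of the respective list, and was in neither noXL list. The Lama1 site at nucleotide 3 was also called without UV in ESCs. These starts held few sites in all, 22 of 856 in ESC WT and 13 of 811 in NPC WT against 2 of 284 and 2 of 171 in the noXL lists. How often the highest-scoring site of other genes lay at the start was not counted.

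The sites found in all 4 UV lists at the same nucleotide, and in no noXL list, are given next because they recurred with either protein in either cell type. There were 7 among 2803 distinct positions, 4 in Hspg2, 2 in Lamc1 and 1 in Sparc. Positions of other genes that recurred in this way were not counted, so this number cannot be set against a background. All 7 were uridines in coding exons. Of the summed sites of the basement membrane genes, coding exons held 63.3% (NPC ΔZF1) to 87.0% (ESC ΔZF1) in the UV lists. Uridines made up 44.4% (ESC ΔZF1) to 67.7% (NPC WT). Whether the recurring sites differed from the others in region or base was not tested.
Hspg2, chr4:137522149-137522169, plus strand, exon 32: cagcuccucuUacucccgcca
Hspg2, chr4:137535466-137535486, plus strand, exon 41: ggacggcccuUgcccagcagc
Hspg2, chr4:137561992-137562012, plus strand, exon 83: guagcggcuuUguaggugagu
Hspg2, chr4:137568146-137568166, plus strand, exon 92: agccuacuuuUaugacaaugg
Lamc1, chr1:153332374-153332394, minus strand, exon 1: ugccggaguuUguuaaugccg
Lamc1, chr1:153223660-153223680, minus strand, exon 27: aacaaccucuUggaucagcua
Sparc, chr11:55407255-55407275, minus strand, exon 3: agacugaaguUgcugaggaga

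In each of the 7 windows the crosslinked uridine followed another uridine. Among all uridine sites of the 9 genes, this was so in ESCs for 54.3% with WT (49.9 to 58.6) and 48.5% with ΔZF1 (42.2 to 54.9), and in NPCs for 61.0% with WT (56.9 to 65.0) and 52.6% with ΔZF1 (46.8 to 58.3). The noXL shares were lower, 13.6% in ESCs (7.34 to 23.9) and 23.2% in NPCs (14.1 to 35.8). On the other genes the shares ran from 53.4% to 64.0% with UV and were 29.9% and 29.6% without. A further position, the Sparc uridine in exon 1 printed above, was called in all 6 lists, both noXL lists included. It scored 91.3 in NPC WT, while the highest Sparc scores without UV were 15.8 in ESCs, at this site, and 19.3 in NPCs, at another. Scores are not scaled to depth. Most positions did not recur: 2535 of the 2803 were in 1 list only, a share that was not counted for other genes.

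The first comparison asked how the contacts of basement membrane RNAs differed between NPCs and ESCs with the WT protein. Summed over the 9 genes, ESC WT held 856 sites and NPC WT 811, which is 199 and 352 per 100000 genic sites and a scaled log2 ratio of 0.82 (0.68 to 0.96). The members of the sum lay on both sides of it. Past the limit, 5 of the 9 genes were higher in NPCs (Lama5, Lamb1, Col4a1, Col4a2 and Hspg2) and 2 were lower (Lama1 and Nid1). Of the 6730 genes compared, 11.5% were higher and 10.4% lower. The 9 genes were chosen with earlier results of these data known, so these shares do not test their counts. The median ratio was 1.17 over the 9 genes and 0.04 over all genes.

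**Figure D1:**
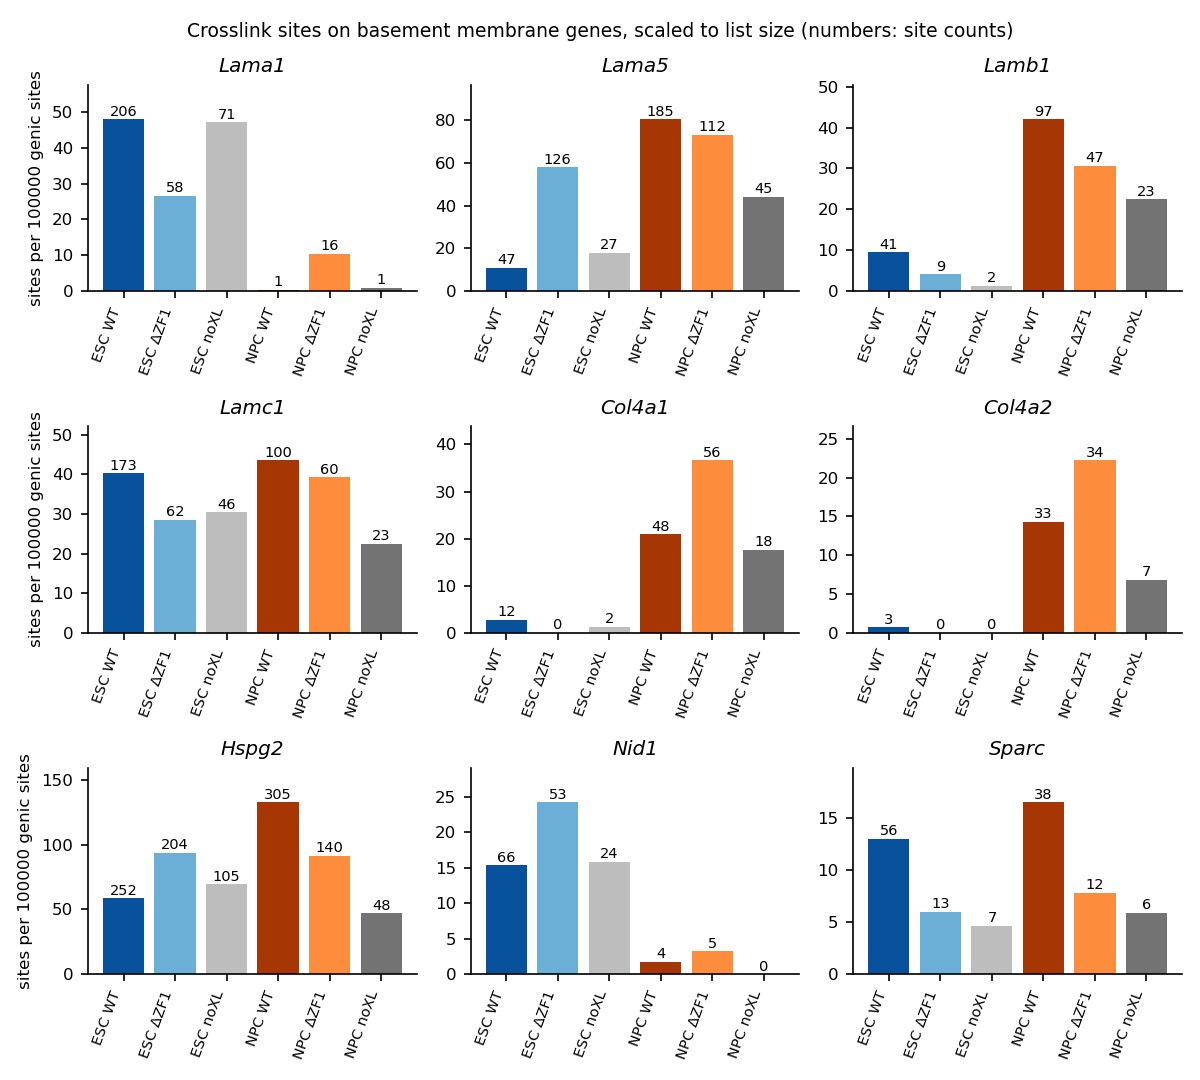
Crosslink sites on each basement membrane gene per 100000 genic sites (vertical axis, own scale per gene, starting at 0) in the 6 pooled lists, with the site count above each bar. There is 1 list per group and no error bar. Lama1 and Nid1 stood high in the 3 ESC lists, and Col4a1 and Col4a2 in the 3 NPC lists.

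With WT and without UV, the 2 laminin α chains exchanged places between ESCs and NPCs. With ΔZF1, Lama5 held more sites than Lama1 in both cell types. Lama1, on chromosome 17 from 67697259 to 67822647, held in ESCs 206 sites with WT, 58 with ΔZF1 and 71 without UV, and in NPCs 1, 16 and 1. Lama5, on chromosome 2 from 180176373 to 180225859, held 47, 126 and 27 sites in the ESC lists and 185, 112 and 45 in the NPC lists in the same order. The lowest ESC list of Lama1 lay above its highest NPC list, whereas the Lama5 lists overlapped between cell types through ESC ΔZF1. For WT, the NPC to ESC ratio was -5.79 (-9.29 to -4.28) for Lama1 and 2.85 (2.42 to 3.34) for Lama5. Lama5 thus took 18.6% of the sites of both α chains in ESC WT (14.3 to 23.8) and 99.5% in NPC WT (97.0 to 99.9). The noXL controls shifted likewise, from 27.6% (19.7 to 37.1) to 97.8% (88.7 to 99.6).

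The β1 and γ1 chains did not move together. Lamb1, on chromosome 12 from 31265234 to 31329644, held in ESCs 41 sites with WT, 9 with ΔZF1 and 2 without UV, against 97, 47 and 23 in NPCs, so that all NPC lists were above the ESC lists once scaled. Its WT ratio was 2.12 (1.62 to 2.67). Lamc1, on chromosome 1 from 153218922 to 153332786, held 173, 62 and 46 sites in ESCs and 100, 60 and 23 in NPCs. Its scaled levels overlapped, at 40.3 and 43.5 sites per 100000 in the WT lists, and its ratio was 0.11 (-0.25 to 0.46).

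The collagen IV pair was nearly empty in ESCs. Col4a1, on chromosome 8 from 11198423 to 11312826, held in ESCs 12 sites with WT, 0 with ΔZF1 and 2 without UV, against 48, 56 and 18 in NPCs. Col4a2, which overlaps the first bases of Col4a1 on the other strand and runs from 11312805 to 11449287, held 3, 0 and 0 against 33, 34 and 7. The WT ratios were 2.81 (2.00 to 3.80) and 3.99 (2.74 to 5.98). In ESC ΔZF1, a count of 0 allows up to 3 sites, and on that floor NPC ΔZF1 had at least 18.7-fold more Col4a1 sites and at least 11.3-fold more Col4a2 sites before scaling. Their profiles over the 6 lists were close to each other, at a distance of 1.48 log2 units, where 36 pairs of the 9 genes ranged from 0.94 (Lamc1 and Hspg2) to 10.40 (Lama1 and Col4a2).

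The linkers differed from each other as well. Hspg2, on chromosome 4 from 137468769 to 137570630, was the gene with most sites. It held in ESCs 252 with WT, 204 with ΔZF1 and 105 without UV, and in NPCs 305, 140 and 48. Its WT ratio of 1.17 (0.93 to 1.41) was just past the limit, but was inside it with exon sites alone (0.92) and without scaling (0.27). Nid1, on chromosome 13 from 13437551 to 13512269, held 66, 53 and 24 sites in ESCs but 4, 5 and 0 in NPCs, with a WT ratio of -2.85 (-4.55 to -1.75). Sparc, on chromosome 11 from 55394500 to 55423183, held 56, 13 and 7 sites in ESCs and 38, 12 and 6 in NPCs. It did not pass the limit, at 0.35 (-0.25 to 0.93).

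The same contrast without UV gives the background of these ratios. Between the noXL lists 7 of the 9 genes could be compared, 3 of them higher (Lama5 1.28, Lamb1 3.56 and Col4a1 3.23) and 2 lower (Lama1 -4.61 and Nid1, which had 24 sites in ESCs and 0 in NPCs), where 11.1% of 3726 genes were higher and 12.3% lower. Among the 7 genes past the limit with WT, Hspg2 alone had noXL lists that pointed the other way, at -0.55 (-1.06 to -0.07), and Col4a2 had too few noXL sites, 7 and 0, to be compared. With ΔZF1 all 9 genes were compared, 3 of them higher (Lamb1, Col4a1 and Col4a2) and 2 lower (Lama1 and Nid1), against 10.9% and 14.1% of 5113 genes, or 25.0% past either limit. Lama5 was within the limits there, at 0.34 (-0.03 to 0.70), and so was Hspg2, at -0.03 (-0.35 to 0.27). The difference between the WT, ΔZF1 and noXL ratios was not tested.

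**Figure D2:**
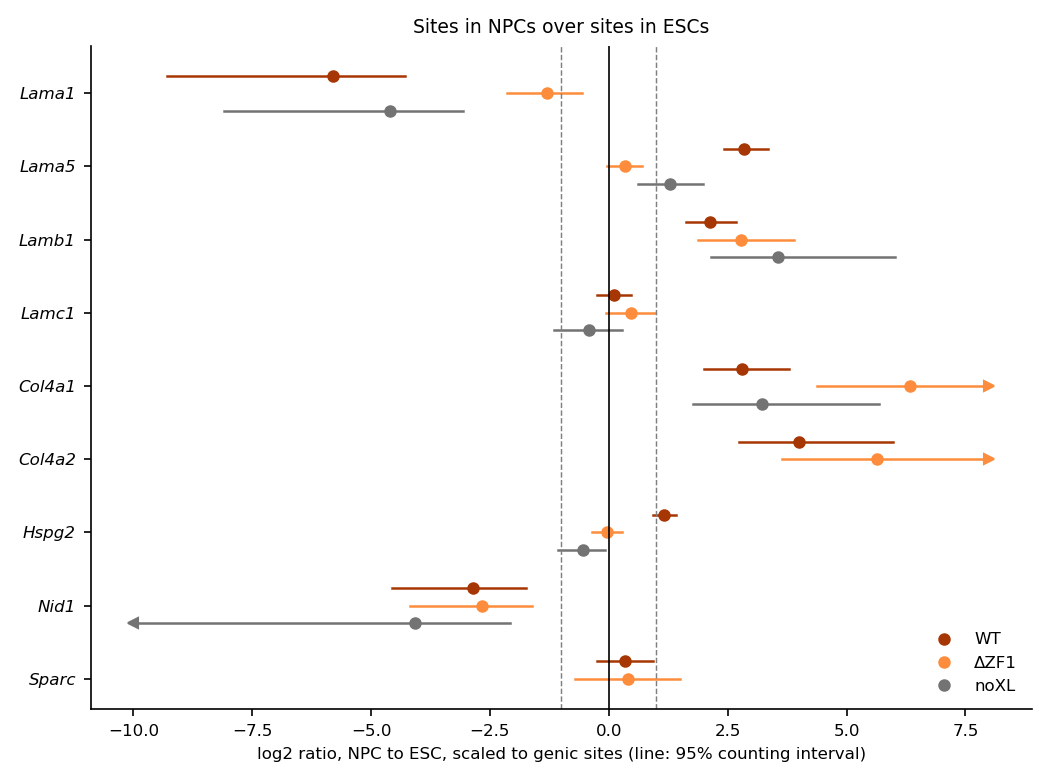
Log2 ratio of sites in NPCs to sites in ESCs (horizontal axis), scaled to genic sites, for the WT, ΔZF1 and noXL lists. Points are ratios with a pseudocount of 1, lines 95% counting intervals, arrows intervals without an end because 1 list had no site, and dashed lines the limits of -1 and 1; pairs with under 20 sites are left out. Lama1 and Nid1 lie left of 0 in all 3 lists, whereas Hspg2 lies at 1.17 with WT and -0.55 without UV.

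The second comparison asked how sites differed when zinc finger 1 was mutated. In ESCs the summed sites were 856 with WT and 525 with ΔZF1, a scaled ratio of 0.27 (0.12 to 0.43). Of the 7 genes compared, Lama5 was higher past the limit, where 6.84% of 6518 genes were, and Lamb1 and Sparc were lower, where 5.45% were. The median was -0.49 over the 7 genes and 0.04 over all. Lama5 had a ratio of 2.38 (1.92 to 2.88), above 99.2% of the genes compared, and was the only one of the 9 with more sites in ESC ΔZF1 than in ESC WT as counted, 126 against 47. Lamb1 was at -1.09 (-2.23 to -0.19) and Sparc at -1.05 (-1.99 to -0.27), just past the limit, and Lamb1 was inside it with sites scoring at least 3.02 (-0.65) or with uridine sites (-0.72). Lama1, at -0.83 (-1.27 to -0.43), and Lamc1, at -0.49 (-0.92 to -0.08), lay below 0, and Hspg2, at 0.68 (0.41 to 0.94), and Nid1, at 0.67 (0.14 to 1.18), above it. Since Lama1 was lower and Lama5 higher, Lama5 took 68.5% of the α chain sites in ESC ΔZF1 (61.4 to 74.8). The ESC WT share was 18.6%, as given above, and that of NPC ΔZF1 87.5% (80.7 to 92.2). The 47 Lama5 sites of ESC WT enter both the NPC to ESC ratio of 2.85 and the ΔZF1 to WT ratio of 2.38, so these are not independent.

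In ESC ΔZF1 the naive markers summed to 279 sites per 100000 genic sites against 291 in ESC WT, most of them on Esrrb (ratio 0.17) and Tfcp2l1 (0.01), whereas Klf4 was at -0.84 and Zfp42 at -0.80. The general pluripotency genes Pou5f1 and Sox2 summed to 12.4 against 16.8 sites per 100000, with Sox2 at a ratio of -1.02 from 8 and 35 sites and Pou5f1 at 0.05 from 19 and 37. Nes and the 12 endoderm markers were at 0. Whether cell state had a part in the Lama5 ratio was not tested. Each rescue line was 1 clone, and clone and protein cannot be told apart. Sparc lies on chromosome 11, where the median ratio of 607 genes was -0.47 and 20.3% were lower, so that its value was closer to that of its chromosome than to that of all genes. Whether the chromosome had a part in the Sparc ratio was not tested.

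In NPCs the summed ratio of ΔZF1 to WT was -0.16 (-0.33 to 0.00), from 482 and 811 sites. None of the 7 genes compared passed the limit, where 5.76% of 5274 genes were higher and 7.36% lower. Sparc reached -1.0 (-2.0 to -0.16) only on rounding, with a chromosome 11 median of -0.61 and 22.0% of 501 genes lower. Col4a1 was at 0.81 (0.26 to 1.36) and Col4a2 at 0.63 (-0.05 to 1.31). Lama5 was at -0.13 (-0.47 to 0.20), in contrast to 2.38 in ESCs. Hspg2 was at -0.53 (-0.82 to -0.25), on the other side of 0 from its ESC value. Without scaling it was below 0 in both, at -0.30 in ESCs and -1.12 in NPCs, where the medians of all genes were -0.94 and -0.63. Lama1 had too few sites to be compared, but its 16 sites in NPC ΔZF1 exceeded the 1 site of NPC WT.

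**Figure D3:**
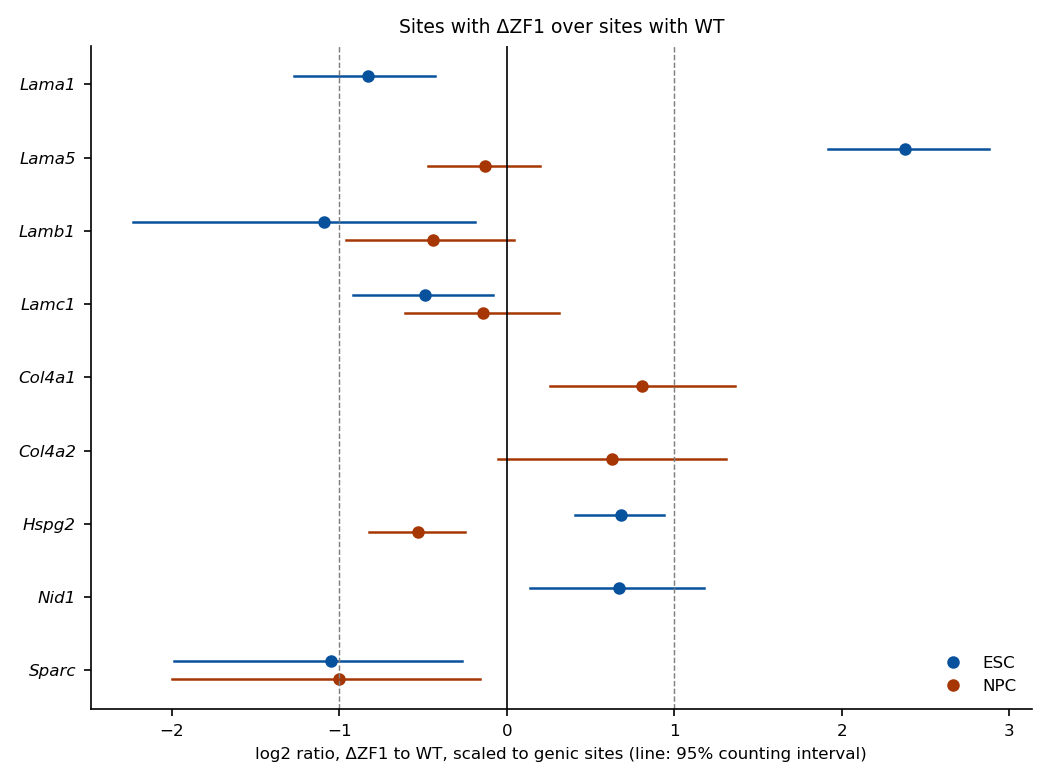
Log2 ratio of sites with ΔZF1 to sites with WT (horizontal axis), scaled to genic sites, in ESCs and NPCs. Points are ratios, lines 95% counting intervals and dashed lines the limits of -1 and 1; pairs with under 20 sites are left out. Lama5 in ESCs stands apart at 2.38, and Hspg2 lies at 0.68 in ESCs and -0.53 in NPCs.

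The UV lists were set against the noXL lists of the same cell type. In ESCs the summed WT ratio over noXL was 0.08 (-0.11 to 0.28), and 2 of 7 genes were past the upper limit, Lamb1 at 2.30 and Sparc at 1.32, where 8.12% of 6208 genes were. Lama1 (0.02), Lamc1 (0.38), Hspg2 (-0.25), Nid1 (-0.09) and Lama5 (-0.73) did not exceed their share of the control list by that size, and none of the 7 was past the lower limit, where 6.60% of genes were. In NPCs the summed ratio was 1.07 (0.83 to 1.31), all 7 genes compared were above 0, and Hspg2 (1.47) and Sparc (1.30) passed the limit, where 10.5% of 4765 genes did and 6.51% passed the lower one. For ΔZF1 the reference is noXL of the WT line: Lama5 was at 1.65 (1.10 to 2.29) in ESCs, 1 of 6 genes past the upper limit where 7.86% of 5013 genes were, with 0 of 6 past the lower one against 6.56%. In NPCs Col4a2 was at 1.54 (0.55 to 2.84), 1 of 6 genes against 7.19% of 3699, again with 0 past the lower limit against 8.03%. Few sites coincided with control sites: 7.59% of the summed sites of ESC WT (6.0 to 9.56) and 5.55% of NPC WT (4.17 to 7.34) lay within 5 nt of a site in the matching noXL list, against 7.64% and 5.61% on other genes.

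Summed over the 9 genes, the sites lay mostly in coding exons. In ESCs coding exons held 76.8% of the summed sites with WT and 87.0% with ΔZF1, against 36.3% and 38.0% of all genic sites. In NPCs they held 82.4% and 63.3%, against 43.3% and 34.4%. The noXL lists showed the same preference, with 75.4% in ESCs and 72.5% in NPCs against 33.8% and 31.8%. Introns held 7.36% of the sites in ESC WT (5.79 to 9.31), where all genes had 33.4%. Their coding length ranged from 996 nt in Sparc and 3735 nt in Nid1 to 11154 nt in Lama5 and 13155 nt in Hspg2. Per coding kilobase, and scaled to genic sites, ESC WT held 4.56 sites per 100000 on Lama1, 4.98 on Lamc1, 3.86 on Hspg2, 2.18 on Nid1, 0.898 on Lama5 and 8.42 on Sparc, the shortest of the 9. In NPC WT the values were 6.47 on Lama5, 7.19 on Lamb1, 6.28 on Lamc1, 8.49 on Hspg2 and 11.8 on Sparc, so that Sparc ranked first per length in both.

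**Figure D4:**
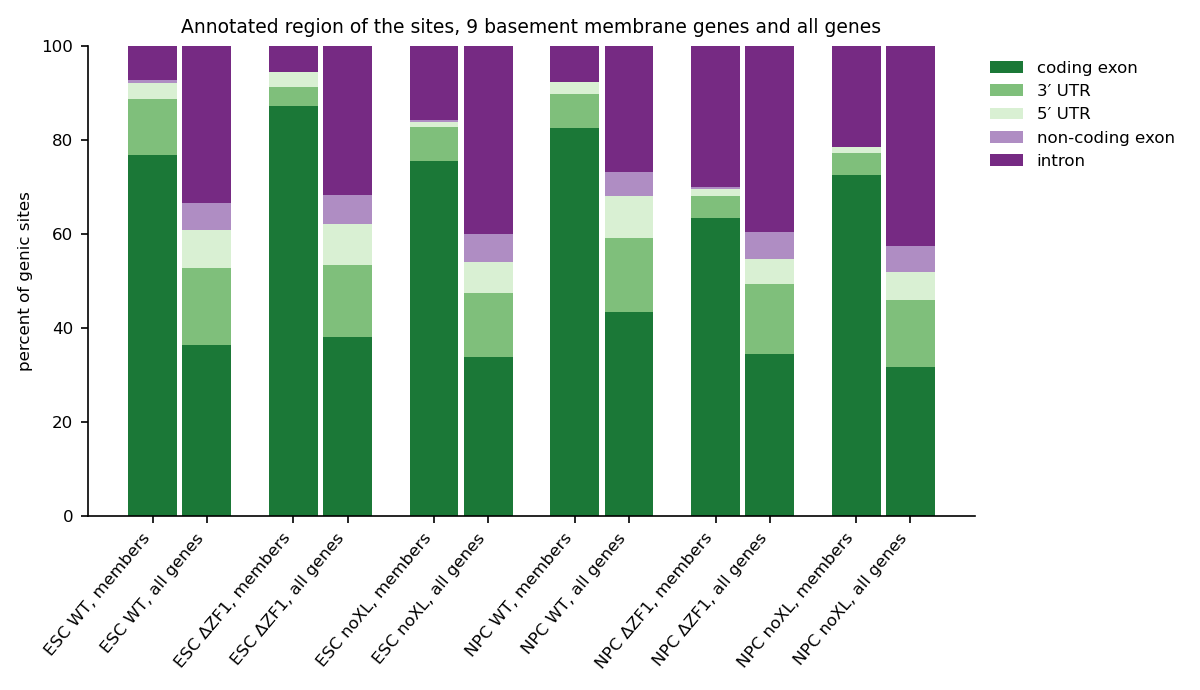
Share of genic sites (vertical axis, percent) by annotated region in each of the 6 lists, for the 9 basement membrane genes summed and for all genes. Coding exons made up 76.8% of the sites on the 9 genes in ESC WT and 36.3% on all genes, and introns 30.1% on the 9 genes in NPC ΔZF1.

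Between the 2 proteins the place of the sites within these transcripts differed, in introns for NPCs and in 3′ UTRs for ESCs. In NPCs the intron share of the summed sites was 7.77% with WT (6.12 to 9.82) and 30.1% with ΔZF1 (26.2 to 34.3), with 21.6% in noXL (16.1 to 28.4). All genic sites went from 26.9% to 39.6%, with 42.6% in noXL. The intron sites came mainly from 3 genes: Hspg2 with 64 of 140 sites in NPC ΔZF1 against 37 of 305 in NPC WT, Lama5 with 41 of 112 against 14 of 185, and Lamc1 with 21 of 60 against 3 of 100. In Hspg2 5 of the 64 lay within 50 nt of an exon, and the most, 15, were in intron 1. In Lama5 13 were in intron 6, and in Lamc1 20 of the 21 were in the long intron 1. Coding exon sites of Hspg2 numbered 257 with WT and 75 with ΔZF1. In ESCs the intron share was 5.71% with ΔZF1 (4.03 to 8.04) and 7.36% with WT, and their intervals overlapped.

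In ESCs the 3′ UTR held 11.8% of the summed sites with WT (9.81 to 14.1) and 4.19% with ΔZF1 (2.78 to 6.26), with 7.39% in noXL (4.89 to 11.0), while all genic sites had 16.4%, 15.2% and 13.6%. Nid1 had 29 of 66 sites there with WT and 8 of 53 with ΔZF1, its coding sites being 35 and 43. Lamc1 had 28 of 173 and 4 of 62, and Sparc 15 of 56 and 0 of 13. In NPCs the shares were 7.27% with WT (5.68 to 9.27) and 4.77% with ΔZF1 (3.20 to 7.06), and their intervals overlapped. Of the 12 Col4a1 sites of ESC WT, 11 lay in the 3′ UTR, against 12 of 48 in NPC WT, and their median score of 0.644 was below the 2.53 of all genic sites in that list. The 3′ UTR of Lamb1 is annotated as a short stretch and held 0 sites in all 6 lists.

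Along the spliced transcripts the sites were spread over many exons. Lama1 sites of ESC WT fell in 57 of 63 exons, Hspg2 sites of NPC WT in 94 of 97 and Lama5 sites of NPC WT in 68 of 79. When the Hspg2 transcript was cut into 3 stretches of equal length, these held 104, 81 and 80 sites in NPC WT. Lama5 in ESC WT was uneven, with 27 sites in the first stretch, 3 in the middle and 17 in the last, whereas ESC ΔZF1 had 45, 37 and 39. The middle of Lama5 was thus where these lists differed most in proportion.

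**Figure D5:**
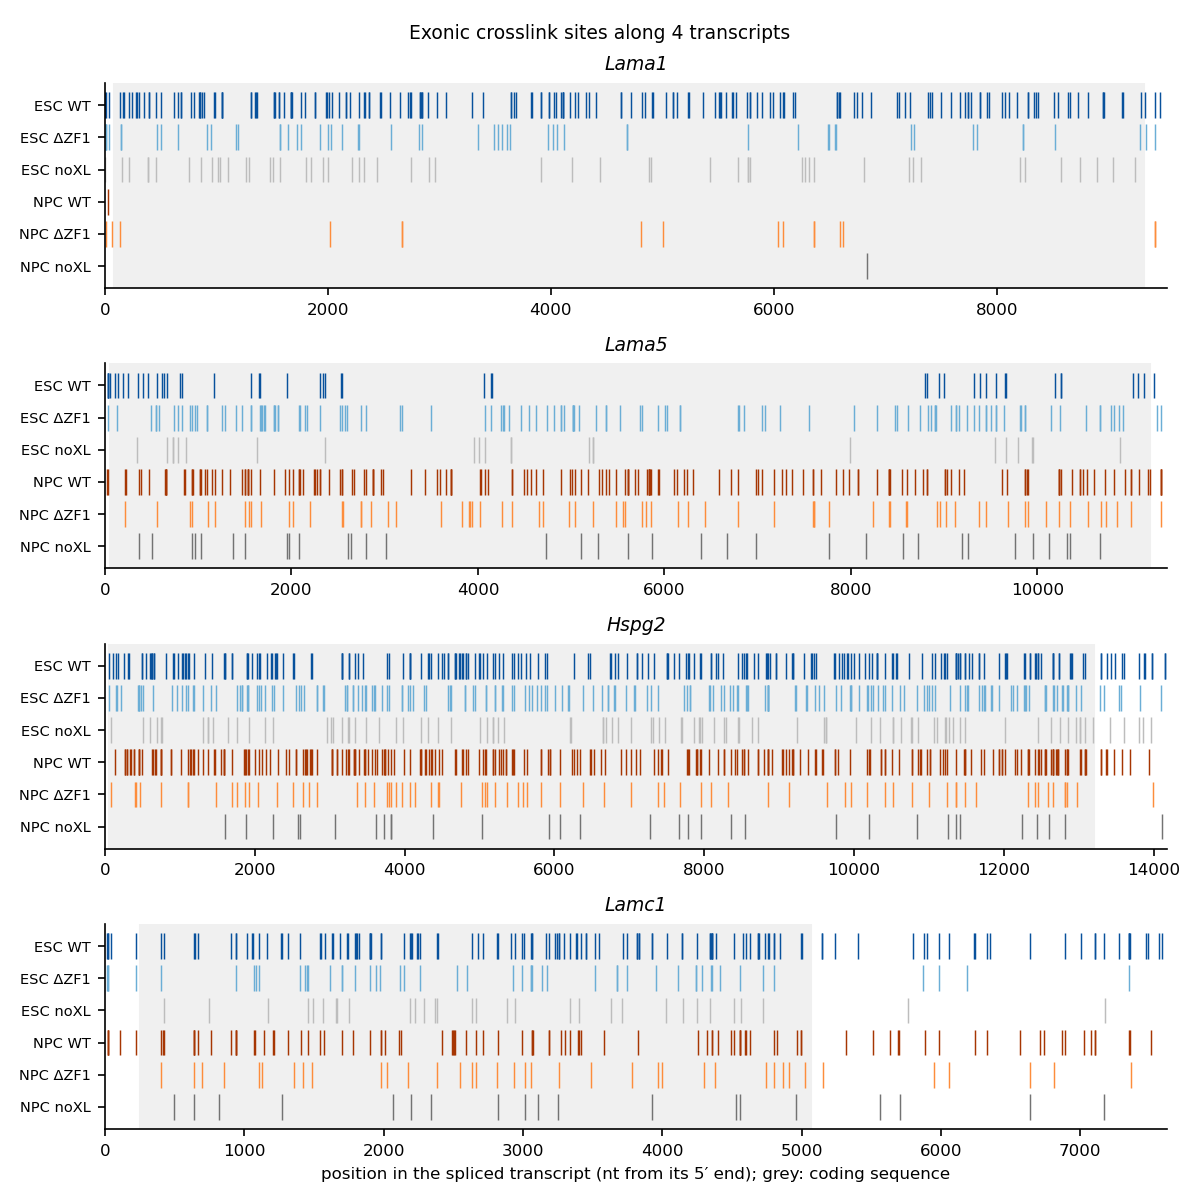
Exonic crosslink sites (ticks) along the spliced transcripts of Lama1, Lama5, Hspg2 and Lamc1 in the 6 lists; the horizontal axis is the position in nt from the 5′ end, and grey marks the coding sequence. Lama1 has a single tick in NPC WT, Lama5 in ESC WT has 3 sites in the middle stretch of 3, and Lamc1 has sites along its 3′ UTR mainly in the WT lists.

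The base at the crosslinked position was then counted. In ESCs uridine made up 58.3% of the summed sites with WT (55.0 to 61.6) and 44.4% with ΔZF1 (40.2 to 48.7). In NPCs it made up 67.7% with WT (64.4 to 70.8) and 60.0% with ΔZF1 (55.5 to 64.2). Without UV it was 23.2% in ESCs (18.7 to 28.5) and 32.7% in NPCs (26.2 to 40.1). All genic sites had 60.6%, 49.2% and 28.3% with WT, with ΔZF1 and without UV in ESCs, and 64.6%, 59.0% and 27.9% in NPCs. The 20 nt around the sites were poorer in uridine on the 9 genes, with 23.9% in ESC WT and 22.6% in NPC WT, than on other genes, with 29.7% and 27.4%. Among single genes Sparc had the highest uridine shares with WT, 76.8% in ESCs (64.2 to 85.9) and 86.8% in NPCs (72.7 to 94.2), and Lamb1 had 81.4% in NPCs (72.6 to 87.9). Lama5 had 42.6% in ESC WT (29.5 to 56.7) and 71.9% in NPC WT (65.0 to 77.9), and in ESC ΔZF1, where it held more sites, 42.1% (33.8 to 50.8).

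Positions were then compared between lists. Of the 525 summed sites of ESC ΔZF1, 24.2% lay within 5 nt of an ESC WT site (20.7 to 28.0), against 24.2% on other genes. The share was 40.3% in Lamc1 (29.0 to 52.7) and 61.5% in Sparc (35.5 to 82.3) but 9.52% in Lama5 (5.53 to 15.9), so that most Lama5 sites of ESC ΔZF1 were at positions not called in ESC WT. In NPCs 20.3% of the summed ΔZF1 sites lay near a WT site (17.0 to 24.2), against 13.1% on other genes. Between cell types, the ESC WT list had a site within that distance of 24.4% of the NPC WT sites (21.6 to 27.5), and of 28.2% on other genes. Sparc again had the highest share among genes with at least 20 sites, 65.8% (49.9 to 78.8), and Lama5 and Col4a2 the lowest, 5.41% (2.96 to 9.66) and 3.03% (0.537 to 15.3), both of which had few ESC sites to be near.

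The other genes of the pathway were taken as 4 lists of 45 genes in all. For NPC WT against ESC WT 24 could be compared, of which 6 were higher and 2 lower, with a median of 0.34, where 11.5% and 10.4% of all genes were past these limits. Of the 7 other laminin chains, 4 held no site in any list, and Lamb2, the β2 chain, held with WT 16 sites in ESCs and 15 in NPCs. Ntn1, a laminin-related guidance cue, held in ESCs 0 sites with WT, 24 with ΔZF1 and 4 without UV, and 0 in each NPC list. Among the other components, the heparan sulfate proteoglycan gene Agrn had 134 sites with WT in ESCs and 159 in NPCs, a ratio of 1.14, Col18a1, which encodes collagen XVIII, had 51 and 221, a ratio of 2.99, and Nid2, the second nidogen, 128 and 52, a ratio of -0.38. Without UV the ratios were -0.08 for Agrn, 2.45 for Col18a1 and -0.76 for Nid2, and with ΔZF1 they were 0.67, 2.27 and -0.30.

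Of 11 receptor genes 8 were compared, and 2 were higher in NPC WT and 0 lower. The integrin subunits Itgb1 (95 and 129 sites, ratio 1.34) and Itga3 (80 and 111, ratio 1.37) passed the limit, and dystroglycan, Dag1 (99 and 89, ratio 0.75), did not. Without UV the ratios of these genes were 1.74, 0.00 and 0.80. Of 11 genes of collagen and laminin biosynthesis 9 were compared, with 2 higher and 0 lower. The higher ones were P4ha2, a collagen prolyl hydroxylase subunit (2 and 29, ratio 4.22), and Pxdn, the peroxidase that crosslinks collagen IV (7 and 70, ratio 4.05, and 3.84 without UV). Those with most sites were within the limits, namely the secretion factor Mia3 (96 and 52, ratio 0.03), P4hb, protein disulfide isomerase (72 and 65, ratio 0.75), and the collagen galactosyltransferase Colgalt1 (73 and 35, ratio -0.14). For ΔZF1 against WT 22 of the 45 were compared in each cell type, with medians of -0.27 in ESCs and -0.18 in NPCs. In ESCs 1 was past the upper limit and 3 past the lower one, against 6.84% and 5.45% of all genes, and in NPCs 1 and 1, against 5.76% and 7.36%. The lower ones in ESCs were Mia3 at -1.53, Dag1 at -1.02 and Smoc1, a matrix glycoprotein gene with 21 WT sites and 0 with ΔZF1.

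Over the 6 lists, genes with profiles most like that of the 9 summed were sought among 3861 genes with at least 100 sites, by the Euclidean distance of centred log2 scaled counts. The nearest were Ifrd1 (0.27), Cd151 (0.29), Insig1 (0.29), Bzw1 (0.35) and H3f3a (0.35). Nearest to Hspg2 were Prpf31 (0.42), Ifrd1 (0.45), Mrpl38 (0.47), Gm43738 (0.51) and H13 (0.53). Nearest to Lama5 were Plxnb2 (0.68), Ajuba (0.82), Plec (0.91), Pdlim7 (0.97) and Fstl1 (0.98). Of the other 8 members, Nid1 was the nearest to Lama1, at 2.58. The strand opposite to the 9 genes held 0 sites in all 6 lists.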

How the data were processed

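CTCF iCLIP2 sites of mouse ESCs and NPCs were analysed from 6 deposited lists, 1 per group, that pool 23 libraries grouped by their labels. Per the labels and methods, the authors used Flexbar for trimming, STAR for alignment to mm10, UMI-tools for removal of duplicates and PureCLIP, on the merged libraries of each condition, for calling crosslinked nucleotides. Versions are not given in the sources used here. The deposited value is the PureCLIP score of a site, which is not scaled to depth. It was used to rank sites and, in an alternative, to set a minimum. A few scores were set beside those of other lists or a list median. Read depth is unknown, so longer lists give narrower intervals.

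Sites of the autosomes, X and Y were assigned by strand to gene bodies of GENCODE M21, and each took the first region that applied, coding exons before 3′ UTR, then 5′ UTR, exons without coding function and introns. All lay within the chromosome lengths of the GRCm38 reference, from which bases were read. Exon numbers and transcript positions refer to 1 transcript per gene. Of the sites on the 9 genes, 6 on Lamc1 and 1 on Hspg2 also lay in another gene. Ratios used a pseudocount of 1, a minimum of 20 sites, scaling to genic sites and limits of 1 and -1, with a floor of 3 sites. Intervals are 95% Wilson intervals. Sites within 5 nt counted as shared. Because each group is 1 list, no test was run. All 9 genes are named, and of each wider list the 3 genes with most WT sites, except 1 gene that is not reported here; Ntn1 and the genes past a limit were named after their values were seen. The genes and lists were chosen with earlier results of these data known. Alternatives changed the score minimum, base, region, scaling, pseudocount, gene minimum, merging within 8 nt, sharing distance and removal of sites near noXL sites or in other genes. Calculations were tested on simulated data. Python 3.11.15, numpy 2.4.6, pandas 2.3.3, pysam 0.24.0 and matplotlib 3.10.9 were used.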

Additional observations from a re-analysis of the deposited data

Results flagged for a closer look

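Hspg2 was singled out because its ΔZF1 to WT ratio had opposite signs in the 2 cell types, 0.68 (0.41 to 0.94) in ESCs and -0.53 (-0.82 to -0.25) in NPCs, with counting intervals on either side of 0. Without scaling both ratios were below 0, at -0.30 in ESCs and -1.12 in NPCs, where the medians of all genes were -0.94 and -0.63. Among intron sites both were above 0, at 0.93 and 0.81, in ESCs from 11 sites with ΔZF1 and 12 with WT. The signs stayed opposite with exon sites (0.63 and -0.94), uridine sites (0.63 and -0.38) and the score minimum (0.74 and -0.74). The difference between the cell types was not tested, since each ratio compares 2 pooled lists.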

How the results depend on the processing

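No paired analysis was possible because sites were called on merged libraries, 1 list a group, and leaving out single libraries was not possible either. Site lists do not give read depth, so what depth limits is unknown beyond the counting intervals.

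Without scaling, the summed NPC to ESC ratio for WT was -0.08 in place of 0.82, the summed ΔZF1 to WT ratio was -0.70 in ESCs and -0.75 in NPCs, with 5 and 3 of 7 genes past the limits (1 higher and 4 lower, and 3 lower) where 47.1% and 28.4% of all genes were lower, and the WT to noXL ratio was 1.59 in ESCs and 2.24 in NPCs; the medians of all genes moved to -0.86 (NPC to ESC), -0.94 (ΔZF1 to WT, ESCs) and -0.63 (NPCs). With a minimum score of 3.02, the median of the 6 lists pooled, the summed ratios were 1.15 (NPC to ESC), -0.48 (ΔZF1 to WT in NPCs), 0.34 (WT to noXL, ESCs) and 1.60 (NPCs). Exon sites gave 0.68 for NPC to ESC, and uridine sites 0.29 for WT to noXL in ESCs. Intron sites, few in number, gave 1.21 for NPC to ESC with 2 of 2 genes past the limits (Hspg2 higher, Lamc1 lower at -1.74; all genes 16.8% higher and 25.4% lower), 0.00 for ΔZF1 to WT in ESCs with 1 of 3 genes (Lama1 lower; all genes 13.9% lower), 1.22 in NPCs with 2 of 3 genes (Lama5 higher at 1.52 and Lamc1 at 2.49; all genes 14.6% higher), and -0.76 and 0.24 for WT to noXL in ESCs and NPCs. In NPCs the count of genes past the ΔZF1 to WT limits went from 0 to 1 with the score minimum, with uridine sites, without sites near noXL sites, with merged clusters or with a pseudocount of 0.5 (Sparc lower in each, where 6.25% to 9.81% of all genes were), and to 1 with exon sites (Col4a1 higher, where 4.40% of all genes were).

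The uridine share with the score minimum was 64.3% with WT in ESCs and 74.0% in NPCs, and among intron sites 42.9%, 33.3% and 17.8% in the WT, ΔZF1 and noXL lists of ESCs and 47.6%, 53.8% and 43.2% in those of NPCs. The intron share with the score minimum was 5.10% with WT in ESCs and 4.61% in NPCs, and among uridine sites 5.41%, 5.46% and, in NPC noXL, 28.6%. Sharing at the same nucleotide and within 20 nt was 11.4% and 44.8% for ESC ΔZF1 near ESC WT, 13.1% and 34.2% for NPC ΔZF1 near NPC WT, and 13.3% and 37.5% for NPC WT near ESC WT. Of 235 values of single genes under the alternatives, 215 stayed on their side of the limits, 13 moved past a limit in the same direction, 4 moved inside one, and 3, the intron values of Lamc1 and Lama5 above, changed sign and ended past a limit. The cause of these shifts was not tested.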
